A study of Mus musculus with 2 samples.

Results

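The insulin-like growth factor (IGF) family was examined in sorted lung cells on 2 Illumina mouse bead arrays. Its 10 genes were taken as those whose symbol in the array's annotation is Igf1, Igf2, Igf1r, Igf2r, or Igfbp2 to Igfbp7. They were read by 14 of the 25697 probes, among 16590 named genes. One array held total RNA of S100A4+ cells from metastatic lung, taken from BALB/c mice that carry an S100A4-GFP transgene and bear 4T1 tumours (4T1 is a metastatic line of mammary carcinoma from BALB/c). The other array held RNA of S100A4+ cells of normal lungs, again from BALB/c mice with the S100A4-GFP transgene. In both groups the cells were sorted by flow cytometry, so each array holds whatever cell types the reporter marks. The sources used here give neither the age of the mice nor the number of animals behind each array.

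With a single array per group and no replicates, a difference between the lungs cannot be told apart from a difference between the arrays. No replicate check exists for any value, their precision is limited by having 1 array, and differences carry no p-value. The closest thing to a measured error is the spread between probes of 1 gene: over 1177 genes with exactly 2 probes detected on both arrays, the log2 ratios of such probes scattered with an SD of 0.25 per probe. That spread covers neither the animals, the sort nor the amplification of the RNA. A probe is called detected where its deposited detection p, its rank among the array's negative control probes, is below 0.01. This held for 40.9% of probes on the metastatic-lung array and 42.6% on the normal-lung array. Ratios are metastatic over normal lung, from values with the background removed, an offset of 16 added, and quantile normalization.

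IGF1 and IGF2 are secreted peptides that drive growth, survival and differentiation of many cells. They signal through IGF1R, a receptor tyrosine kinase, while IGF2R takes IGF2 up for breakdown and also carries lysosomal enzymes. In blood and tissue most IGF is held by binding proteins (IGFBPs), which prolong its life, carry it to cells or matrix, or keep it from the receptor until proteases release it. In lung, mesenchymal cells and macrophages are known sources of IGF1, and vascular endothelium is a known source of IGFBP7.

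In the metastatic-lung cells the signals of Igf1 and Igfbp7 were several-fold lower than in the normal-lung cells, and Igfbp5 was measurable in the normal-lung cells only. Igfbp4 and Igf2r were well above background on both arrays and differed by less than 2-fold. Igf2, Igf1r, Igfbp2, Igfbp3 and Igfbp6 were detected on neither array. Of the 10 genes, 5 were thus detected on at least 1 array, against 49.0% of all genes. By measured ratio, 3 of the 10 were at least 2-fold lower and detected in normal lung, against 4.97% of all genes, and 0 were at least 2-fold higher, against 2.88% of all genes. The direction of a gene detected only where it is high, as Igfbp5 was, is largely set by detection. With 1 array per group and a chosen list, these shares describe the family and test nothing.

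Promoter windows of 3 members are shown to place the genes that the values turn on. Igf1 and Igfbp7 had the largest differences of the family, and Igfbp4 was detected on both arrays with a small one. Each window holds the 250 bases before an annotated RefSeq start in build GRCm38.p6, written 5′ to 3′ on the gene's strand. Capitals mark exact matches, on either strand, to any of the following core promoter motifs. The TATA box was searched as TATAAA, which positions transcription in some promoters. The GC box, bound by Sp1 and related factors, was searched as GGGCGG, and shares no printed match with the other motifs. The remaining motif, bound by the factor NF-Y, was searched as CCAAT on the same windows.
Igf1, chr10:87860861-87861110, + strand: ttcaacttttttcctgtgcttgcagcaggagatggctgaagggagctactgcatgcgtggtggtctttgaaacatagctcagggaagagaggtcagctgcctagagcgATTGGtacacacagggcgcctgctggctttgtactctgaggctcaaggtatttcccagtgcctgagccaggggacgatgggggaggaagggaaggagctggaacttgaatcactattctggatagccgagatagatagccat
Igfbp7, chr5:77408046-77408295, - strand: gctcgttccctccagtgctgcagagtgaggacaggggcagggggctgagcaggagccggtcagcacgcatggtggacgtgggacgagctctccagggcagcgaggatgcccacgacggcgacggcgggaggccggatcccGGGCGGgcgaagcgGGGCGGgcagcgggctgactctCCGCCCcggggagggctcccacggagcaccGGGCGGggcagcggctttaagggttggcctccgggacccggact
Igfbp4, chr11:99040994-99041243, + strand: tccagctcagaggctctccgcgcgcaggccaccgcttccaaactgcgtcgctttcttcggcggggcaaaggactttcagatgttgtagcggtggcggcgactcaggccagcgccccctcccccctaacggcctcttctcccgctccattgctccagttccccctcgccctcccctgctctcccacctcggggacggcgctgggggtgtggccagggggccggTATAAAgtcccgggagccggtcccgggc
The Igf1 window held 1 CCAAT match, on the opposite strand, at position -142 from the start, and neither of the other motifs. The Igfbp7 window held 4 GC box matches, the nearest at position -44, and neither of the others. The Igfbp4 window held 1 TATAAA match at position -28. Over the 32851 windows of that length in the RefSeq table, TATAAA was found in 12.4%, GGGCGG in 32.7% and CCAAT in 33.8%. The share of G and C was 52.8% for Igf1, 74.0% for Igfbp7 and 69.2% for Igfbp4, against a median of 52.4% over all windows. A match is a run of letters and not a measured binding site, and other starts of these genes may exist.

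Of the ligand genes, Igf1 had a signal of 91.1 intensity units in the metastatic-lung cells, with a detection p of 0.00125, and of 445.2 in the normal-lung cells, with a detection p of 0. The metastatic-lung signal lay 36.6 units above the mean background of that array, and the normal-lung signal 387.0 units above the mean background of its own. The normalized log2 value was 5.77 in metastatic lung and 8.68 in normal lung, a log2 ratio of -2.91 (7.53-fold lower). Among the 8128 genes detected on at least 1 array, 62 had a lower ratio than Igf1. The single Igf1 probe gave no second reading. In the authors' processed values, which keep a constant in the signals, the same probe was 4.10-fold lower. Igf2, the ligand that is abundant before birth and imprinted, had signals of 59.4 in metastatic lung and 67.3 in normal lung, with detection p-values of 0.164 and 0.0927. Neither signal was detected, so no fold is given.

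**Figure D1:**
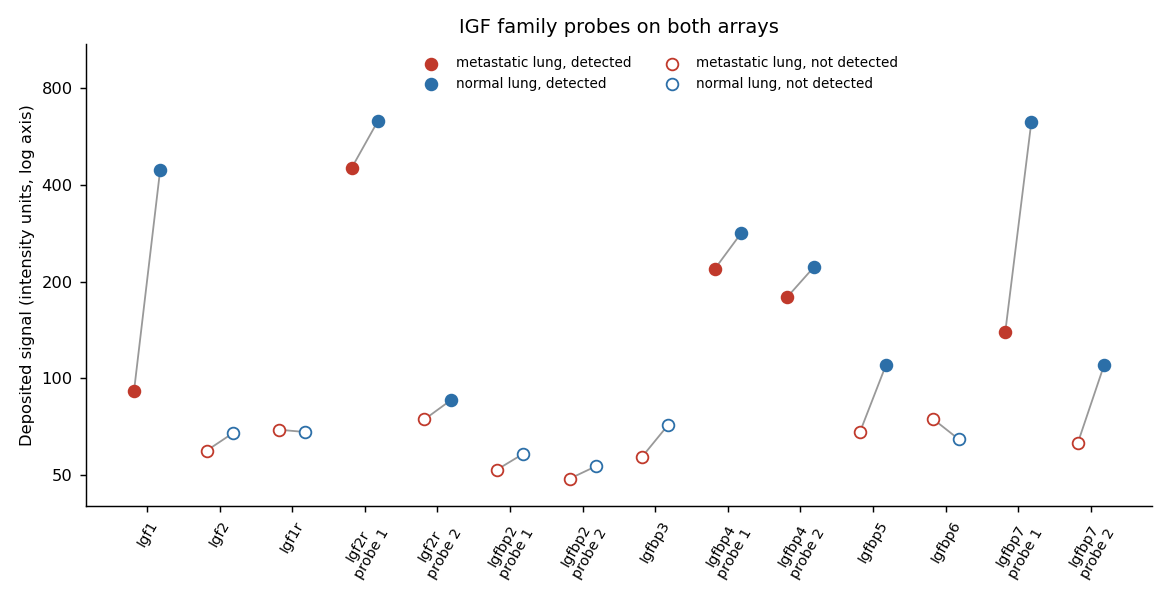
Deposited signal of each of the 14 IGF family probes in intensity units on a log axis, with 1 point per array, metastatic lung at left and normal lung at right of each pair. Filled points are detected and open points are not. Igf1 and the brighter Igfbp7 probe (probe 1) show the steepest pairs, at 91.1 and 138.8 in metastatic lung against 445.2 and 628.9 in normal lung.

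Of the receptor genes, Igf2r differed by less than 2-fold and Igf1r could not be measured. Igf1r, the signalling receptor, had signals of 69.0 in metastatic lung and 67.9 in normal lung, and was detected on neither array (detection p-values of 0.0301 and 0.0827). Igf2r was read by 2 probes. Its brighter probe had signals of 452.8 in metastatic lung and 633.3 in normal lung, a log2 ratio of -0.61 (1.53-fold lower). Its other probe had signals of 74.3 and 85.2 for metastatic and normal lung, and reached detection in normal lung only. That probe lay so close to background that no bound above 1-fold follows. Both Igf2r probes had the lower deposited signal in the metastatic-lung cells, but in the authors' processed values the dim one had 103.8 in metastatic lung and 101.3 in normal lung. On the log2 scale the difference of the brighter probe is larger than the scatter between probes of 1 gene. That scatter does not cover differences between arrays, animals or sorts, and 1462 of the 8128 detected genes had a lower ratio.

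Among the binding protein genes, Igfbp7 showed the largest difference. IGFBP7 binds IGFs weakly, lies in vessel walls and matrix, and is also called angiomodulin. Its brighter probe had a signal of 138.8 in the metastatic-lung cells (detection p 0.00125) and 628.9 in the normal-lung cells. The normalized log2 values were 6.68 in metastatic lung and 9.26 in normal lung, a log2 ratio of -2.58 (5.99-fold lower), and 109 of the detected genes had a lower ratio. The second Igfbp7 probe had signals of 62.8 in metastatic lung, where it was not detected, and 109.5 in normal lung, where it was. A ratio against a signal that is not above background gives only a bound. It was computed by raising the dim value to the lowest value of any detected probe on that array. By that rule the second probe was at least 1.59-fold lower, so both probes were lower in the metastatic-lung cells while the size rests on the brighter one. The brighter probe was 4.18-fold lower in the authors' processed values.

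Igfbp5 encodes a binding protein that attaches to extracellular matrix. Its probe had a signal of 68.0 in the metastatic-lung cells (detection p 0.0389) and 110.2 in the normal-lung cells (detection p 0.00125). The measured log2 ratio was -1.10, and the bound was at least 1.61-fold lower. With genes of 1 array at their bounds, 2 of the 5 detected members, Igf1 and Igfbp7, were at least 2-fold lower, against 8.16% of the 8128 genes detected on at least 1 array. With no background correction the Igfbp5 log2 ratio was -0.59, and in the authors' processed values it was -0.39. The gene lies next to Igfbp2 in the RefSeq gene order of chromosome 1. Igfbp2 was at background on both arrays through both of its probes, with signals of 48.6 and 51.8 in metastatic lung and 53.1 and 58.1 in normal lung.

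Igfbp4 encodes a binding protein that mostly restrains IGF action and is cut by the protease PAPP-A. Its 2 probes were detected on both arrays and gave like ratios. The brighter had signals of 219.0 in metastatic lung and 282.4 in normal lung, a log2 ratio of -0.42 (1.34-fold lower). The other had signals of 179.2 in metastatic lung and 221.2 in normal lung, a log2 ratio of -0.33. Of the detected genes, 1987 had a lower ratio than Igfbp4. Igfbp3, which carries most IGF in blood, had signals of 56.9 in metastatic lung and 71.6 in normal lung (detection p-values of 0.268 and 0.0363). Igfbp6, which binds IGF2 in preference to IGF1, was the member nearest to detection in the metastatic-lung cells, with signals of 74.8 there and 64.5 in normal lung (detection p-values of 0.0125 and 0.144). It was the sole member besides Igf1r with a higher signal in metastatic lung, and neither was detected.

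**Figure D2:**
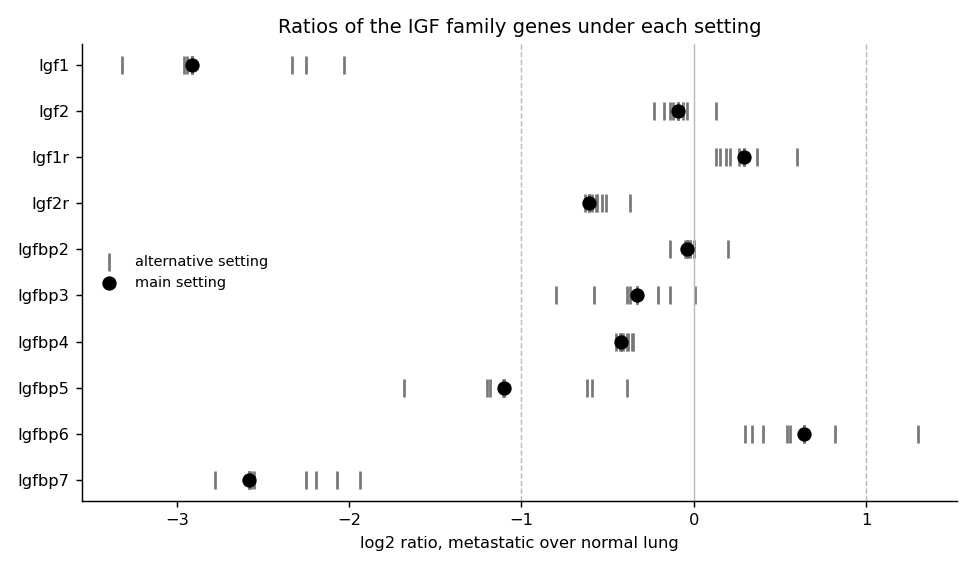
The log2 ratio of metastatic over normal lung for each of the 10 genes by its brightest probe (black point, main setting), with a grey bar for each of 10 alternative settings. Dashed lines mark 2-fold differences. Igf1 and Igfbp7 stay left of the 2-fold line under all 10 settings, Igfbp5 falls on both sides of it, and Igf2, Igfbp2 and Igfbp3 straddle 0. Settings that change only the detection rule leave every ratio as it was. Averaging over probes cannot move a gene with a single probe.

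Over the 5 detected members the median log2 ratio was -1.10, ranging from -2.91 for Igf1 to -0.42 for Igfbp4, and all 5 ratios were below 0. This median is the measured ratio of Igfbp5, which was not detected in metastatic lung and has a bound of -0.69. The median was -0.59 with no background correction, -0.59 in the authors' processed values and -1.68 with an offset of 1. Over all 8128 detected genes the median was 0.01, and 3979 ratios were below 0. The member with the highest mean value on both arrays was Igf2r. The 3 genes nearest to it, by the distance of both normalized log2 values over the 2 arrays, were 3110082I17Rik, Rnf141 and Klra17, at distances of 0.00704, 0.0216 and 0.0446. With 2 arrays such likeness rests on 1 level and 1 difference.

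**Figure D3:**
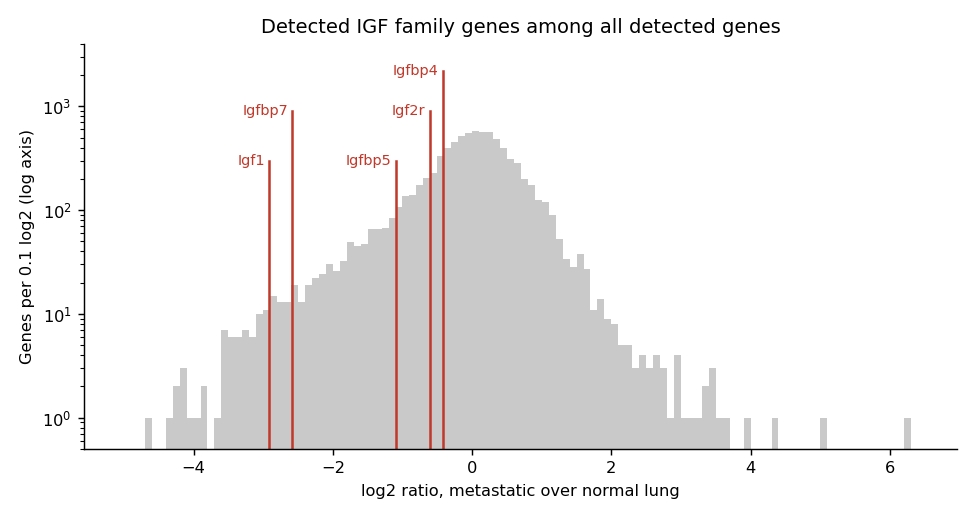
Number of genes (log axis) at each log2 ratio of metastatic over normal lung, in steps of 0.1, for the 8128 genes detected on at least 1 array. Red lines mark the 5 detected IGF family genes, all of them left of 0, with Igf1 at -2.91 and Igfbp7 at -2.58 in the thin left tail.

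The pathway around the family was read from 6 lists with 87 genes, of which 76 were on the array and 47 were detected. By measured ratio 10 of these were at least 2-fold lower and 3 at least 2-fold higher, against 10.2% and 5.88% of all detected genes, and the median log2 ratio was -0.04. With genes of 1 array at their bounds, 8 were lower and 2 higher, against 663 lower and 413 higher of all 8128 detected genes. Relatives of the IGFBPs and CCN matrix proteins, which share a domain with them, had 5 detected genes. By measured ratio all 5 were lower in the metastatic-lung cells, and 3 of them were at least 2-fold lower with bounds. Esm1, Ccn1 and Ccn4 were detected in normal lung only, so their direction was largely set by detection. Kazald1 and Ccn2 were detected on both arrays. Esm1, an endothelial proteoglycan gene, had signals of 72.7 in metastatic lung, where it was not detected, and 488.1 in normal lung, and was at least 11.2-fold lower. Ccn2 (connective tissue growth factor) had signals of 192.7 in metastatic lung and 513.7 in normal lung and was 3.14-fold lower. Kazald1 was 2.46-fold lower, Ccn1 at least 1.78-fold and Ccn4 at least 1.78-fold. Igfals, the third partner of the blood complex of IGF and IGFBP3, and Igfbp1 were detected on neither array.

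Of 16 detected genes of the arm from PI3K to AKT, FOXO and mTOR, 0 were at least 2-fold different either way, against 10.2% lower and 5.88% higher among all detected genes, with log2 ratios between -0.79 (Tsc2) and 0.96 (Rictor). The abundantly read members Pik3cb, Rheb and Pik3r1 had log2 ratios of -0.28, -0.15 and 0.12. Among 11 detected docking proteins and adaptors, Irs1, which links the IGF1 and insulin receptors to PI3K, was the gene at least 2-fold lower, with signals of 86.9 in metastatic lung and 198.6 in normal lung (3.09-fold lower). Gab1, another docking protein gene, was the gene at least 2-fold higher, with signals of 401.9 in metastatic lung and 140.5 in normal lung (3.74-fold higher). Ptpn1, Grb2, Ptpn11 and Shc1 had log2 ratios of 0.71, 0.23, -0.04 and -0.02. The insulin receptor gene Insr was detected on both arrays with signals of 107.5 in metastatic lung and 101.4 in normal lung (log2 ratio 0.31).

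Growth hormone, acting through its receptor, JAK2 and STAT5, is a known inducer of Igf1. Of the 5 detected genes of this axis, the receptor gene Ghr had signals of 57.3 in metastatic lung, where it was not detected, and 206.1 in normal lung, and was at least 3.97-fold lower. Socs2, a feedback inhibitor gene induced by growth hormone, had signals of 167.3 in metastatic lung and 424.8 in normal lung and was 2.99-fold lower. Jak2 had signals of 532.5 in metastatic lung and 222.7 in normal lung and was 2.66-fold higher. Stat5a and Stat5b had log2 ratios of -0.30 and -0.52. Whether these genes bear on Igf1 in these cells was not tested. Of 7 detected genes for IGFBP proteases and their inhibitors, Klk1, one of a group of closely similar kallikrein genes whose probes may be shared, was 4.22-fold lower. Ctsd, Adam9, Mmp9 and Mmp1a had log2 ratios of -0.96, 0.84, 0.65 and -0.60. Among IGF mRNA-binding and imprinted genes 3 were detected: Cdkn1c, a cell cycle inhibitor gene, was at least 2.40-fold lower, Plagl1 at least 1.78-fold higher, and Igf2bp3 had a log2 ratio of -0.17.

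**Figure D4:**
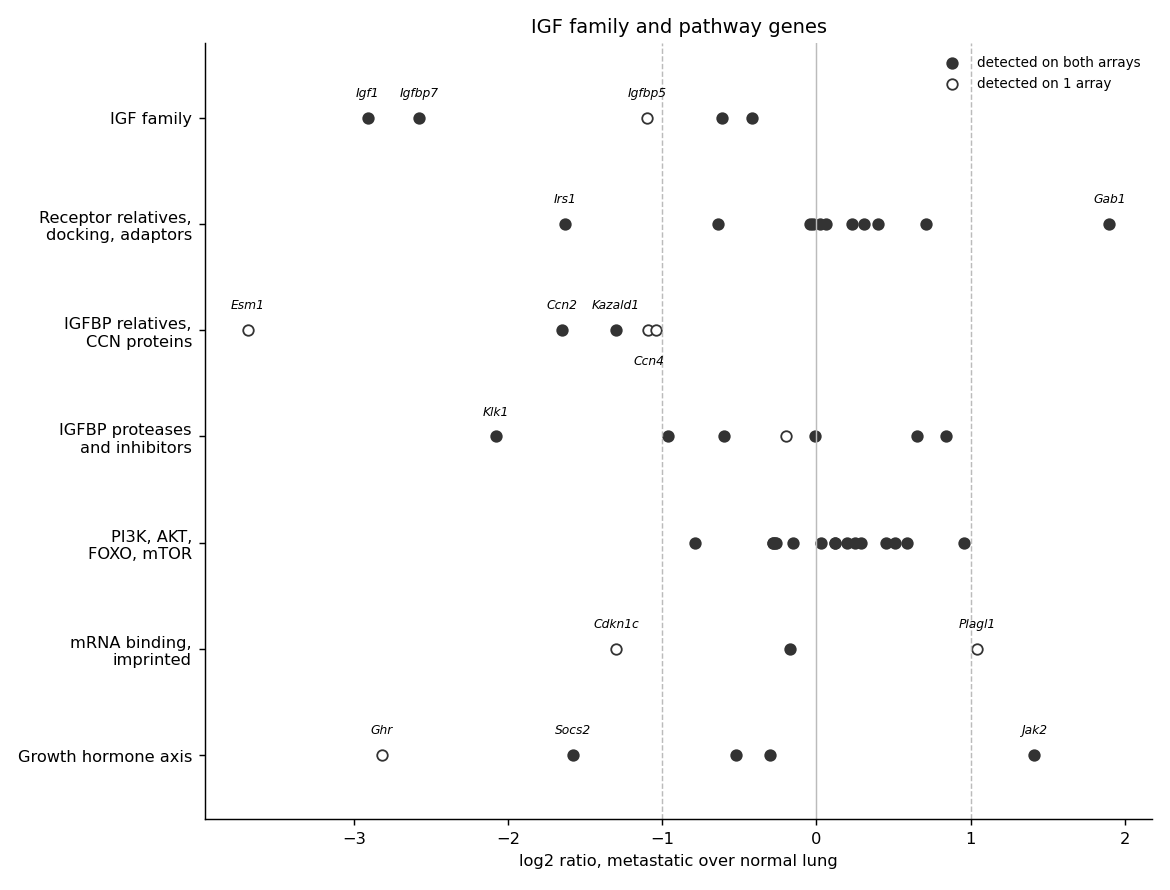
Measured log2 ratio of metastatic over normal lung for each detected gene of the IGF family and of the 6 pathway lists, with genes past 2-fold named where space allows. Open points were detected on 1 array, so that their true ratio is known only as a bound; the 16 genes of the PI3K, AKT, FOXO and mTOR list lie between the dashed 2-fold lines.

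The sorted cells were checked against markers of the cell types the sort could hold. S100a4, the gene of the reporter, had signals of 1122 in metastatic lung and 743.1 in normal lung. All 6 leukocyte markers were detected on both arrays with log2 ratios between -0.43 and 0.23, and Ptprc (CD45) had signals of 2215 in metastatic lung and 1965 in normal lung. Of 8 fibroblast markers 5 were detected, and the collagen gene Col1a1 and the proteoglycan gene Lum were detected on neither array. The label of stromal cells therefore covers RNA with strong leukocyte signal on both arrays.

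All detected fibroblast, endothelial, macrophage and mesothelial markers had log2 ratios below 0, as had all 5 detected members. Of all 8128 detected genes, 3979 had ratios below 0. The smooth muscle and pericyte list, the leukocyte list and the epithelial list had medians of -0.01, -0.21 and -0.76, and most neutrophil markers went the other way. All 5 detected fibroblast markers were at least 2-fold lower, with a median log2 ratio of -2.06 and a summed signal over the 8 markers of 698.3 in metastatic lung against 2052 in normal lung. Summed signals in this paragraph are of deposited values, over all named markers on the array, detected or not. They include background, with a mean per probe of 54.5 in metastatic lung and 58.3 in normal lung, so they are not on the scale of the ratios. Of 7 detected endothelial markers 6 were at least 2-fold lower, with a median of -3.39 and a summed signal over 9 markers of 762.4 in metastatic lung against 3659 in normal lung. The defining endothelial marker Cdh5 was detected on neither array. Of 7 detected macrophage markers 6 were at least 2-fold lower, with a median of -1.78 and a summed signal of 3475 in metastatic lung against 9600 in normal lung. Of that normal-lung sum, Chil3 gave 5414. The marker that differed by less than 2-fold was Adgre1, with signals of 1456 in metastatic lung and 1626 in normal lung (log2 ratio -0.30). Of 8 detected neutrophil markers 7 were at least 2-fold higher, with a median of 2.94 and a summed signal of 8413 in metastatic lung against 3762 in normal lung. The other, S100a9, was the brightest of the list by mean value and was lower, with signals of 1542 in metastatic lung and 2522 in normal lung (log2 ratio -0.85). Of 5 detected mesothelial markers 4 were at least 2-fold lower, 1 of them with bounds. Of 6 detected epithelial markers 2 were, and of 3 detected smooth muscle and pericyte markers 1 was (Des, 5.35-fold lower). Among all detected genes, 10.2% were at least 2-fold lower and 5.88% at least 2-fold higher. Markers detected only on the array where they are high, such as Wt1, Krt19, Mpo and Ctsg, had a direction fixed by detection. The part of these markers in the family's ratios was not tested. In bulk samples of this kind, fewer cells of a type and less RNA per cell cannot be told apart.

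**Figure D5:**
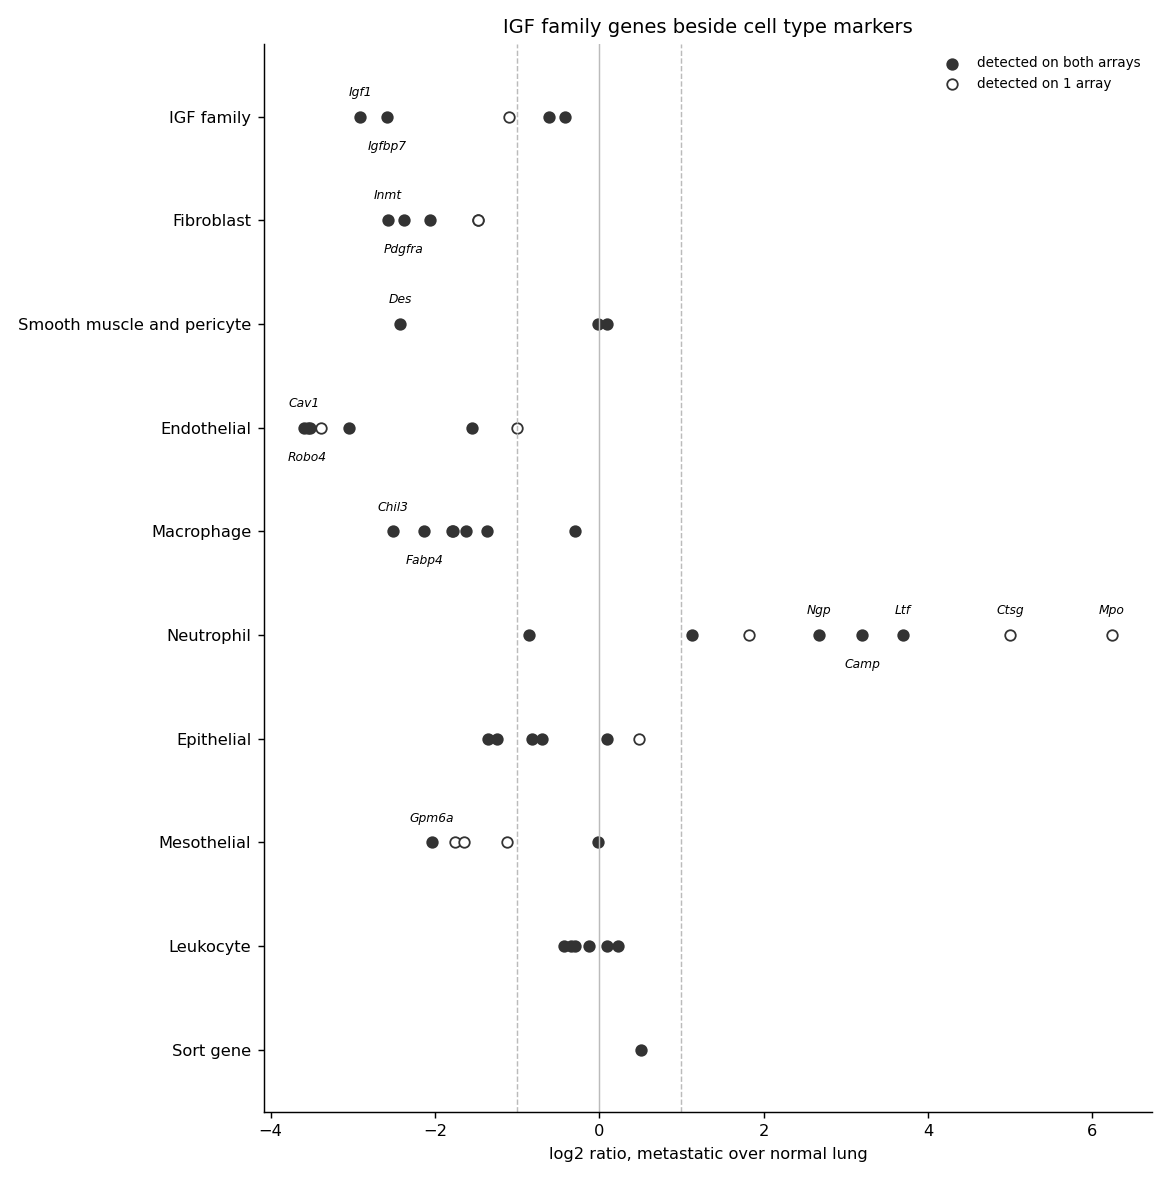
Measured log2 ratio of metastatic over normal lung for each detected gene of the IGF family and of 9 marker lists, with the larger differences named where space allows. Open points were detected on 1 array. Fibroblast, endothelial, macrophage and mesothelial markers lie on the same side of 0 as the IGF family genes, and 7 of 8 neutrophil markers lie on the other side.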

How the data were processed

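Total RNA was amplified and biotin-labelled with a NuGEN WT-Ovation Pico kit, per the labels' protocols, which is made for very small amounts of RNA. For each probe the authors deposited a linear intensity from each array, not normalized, and beside it a detection p-value, per the file headers. BeadStudio, of unstated version, was used per the submitters' processing notes. A second table of the authors' processed intensity values was a straight-line rescaling of each array, with a slope of 0.942 and a constant of 33.8 for metastatic lung and a slope of 1.08 and a constant of 9.31 for normal lung. It served as an alternative.

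Intensities were corrected by a normal-exponential model with background estimated from the detection p-values, given an offset of 16, quantile-normalized and taken to log2 (neqc steps of limma 3.58.1 in R 4.3.3; Python 3.11.15, pandas 2.3.3, numpy 2.4.6, matplotlib 3.10.9). The mean background was 54.5 on the metastatic-lung array and 58.3 on the normal-lung array. The offset understates ratios of dim genes. The platform annotation gave 1 symbol to 23978 probes, more than 1 symbol to 0 probes, and no symbol to 1719 probes, which stay unnamed. Symbols were updated to RefSeq genes of GRCm38.p6, by gene identifier for 23962 probes and by accession for 9. A gene is represented by its probe with the highest mean value, and 2-fold calls require detection on the brighter array. The sources used here do not name the build behind the probes. The background correction and normalization were tested on simulated arrays, with known changes placed on bright probes only. Changes in dim probes, the bounds and the choice of probe for each gene were not tested there.

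Named genes are every member, pathway genes that are at least 2-fold different with up to 4 more of each list by mean value, and markers set beside a result. Insr, Igfals, Igfbp1, Tsc2, Cdh5, Col1a1, Lum, Mpo and Ctsg were named after their values were seen. The members and lists were chosen with earlier results of these data known.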

Additional observations from a re-analysis of the deposited data

How the results depend on the processing

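Under 10 alternative settings, the log2 ratio of Igf1 lay between -3.32 and -2.03 and that of Igfbp7 between -2.78 and -1.94. Both kept their direction and stayed at least 2-fold lower. Settings that change only the detection rule could not move these ratios. Averaging over probes could not move that of Igf1, which has a single probe. The count of members at least 2-fold lower was 3 or 2 in every setting, with Igfbp5 (-1.68 to -0.39) as the gene that left it. The count at least 2-fold higher was 0 in all of them. With a detection p below 0.05, 8 members counted as detected and their median was -0.51. The members' median was -0.59 with no background correction, -0.59 in the authors' processed values, -0.62 with an offset of 50, -1.68 with an offset of 1, and -1.60 over the 4 members detected on both arrays. Igf2r (-0.63 to -0.37) and Igfbp4 (-0.45 to -0.35) kept their sign, while Igf2, Igfbp2 and Igfbp3, all undetected, changed sign in at least 1 setting. The pathway genes at least 2-fold lower numbered 10, against 6 with no background correction, 6 with an offset of 50, 5 in the authors' processed values and 5 with detection on both arrays. The share of all genes called under each alternative setting is not given here. Whether the members and pathway genes moved relative to all genes therefore cannot be read from these counts. The median over all detected genes moved by less than 0.1 in each setting. No paired analysis was possible because each group had 1 array. Weak signals near background limit what can be said of Igf2, Igf1r, Igfbp2, Igfbp3 and Igfbp6.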
